A study of Homo sapiens with 2 samples.

Results

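Integrins are cell surface receptors built of 1 alpha and 1 beta subunit. They bind proteins of the extracellular matrix and couple them to the actin cytoskeleton through talin, kindlins and other adaptors. Laminins are heterotrimers of an alpha, a beta and a gamma chain that form the sheet of the basement membrane under epithelia, and several integrins are their receptors. In epithelial to mesenchymal transition (EMT), the change of epithelial cells to a motile form, cells leave this basement membrane and alter the receptors with which they hold on to matrix. The genes described here are those with an integrin symbol made of ITGA or ITGB and a number, ITGAV, and the numbered laminin chains LAMA, LAMB and LAMC. The symbol rule found 33 gene entries of 57736 in the deposited table, for 32 symbols (12 integrin alpha, 8 integrin beta and 12 laminin genes). ITGB3 has 2 entries with the same coordinates, one of which is at 0 in both libraries.

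A549, a human lung adenocarcinoma line, was profiled in 2 libraries. The first is labelled as an EMT model made with the cytokine TGF-beta and is called the TGF-beta library, and the second came from cells without treatment. Both carry the genotype label WT, and the series text names a line with a red fluorescent vimentin reporter (VIM RFP). No source used here gives the dose or time of the cytokine. Each library was made from 10 ng of total RNA with a kit that amplifies targeted segments of transcripts by multiplex PCR. There is 1 library per group, so that no difference below has a replicate check and no p-value is given. Each ratio has an exact 95% interval that covers counting error only, since amplified reads that carry no molecular identifier can be copies of 1 molecule. In bulk RNA, fewer cells of a kind and less RNA per cell cannot be told apart. Amplicon counts are not per length, so that levels are compared between libraries and not between genes.

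The TGF-beta library held 597133 rounded counts and the untreated library 674784, and the 10 genes with the most counts took 43.7% and 32.7% of them. Vimentin (VIM), a mesenchymal intermediate filament protein, was lower in the TGF-beta library, with 56 counts against 452. This goes against the EMT label. Of 6 mesenchymal markers compared, 0 were past 2-fold higher and 2 lower, VIM and SNAI2, while ZEB2 (5 against 4) and TWIST1 (4 against 3) were above equality but not past 2-fold. Over all genes compared, 21.3% were past 2-fold higher and 29.2% lower. Of 7 epithelial markers compared, 2 were past 2-fold higher and 2 lower. The keratin KRT7 had 32 counts against 179, and the cadherin CDH1 had 4 against 1 with an interval that spans equality. Of 4 markers of alveolar epithelium compared, 1 was past 2-fold higher and 0 lower, and 0 intervals excluded equality. The higher marker was the surfactant gene SFTPB, with 5 counts against 1. The surfactant gene SFTPC had 2 counts in each library, and NKX2-1 had 4 against 8. AGER had 2 against 4, and the alveolar transporter ABCA3 had 45 against 53. Exons that are mostly coding, defined further on, held 45.0% of the exon counts after TGF-beta and 59.0% in untreated cells.

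The integrin and laminin genes did not move as a block. The counts of the laminin-binding integrin subunits ITGB1, ITGA3 and ITGB4 and of the laminin chain LAMB3 were lower in the TGF-beta library, from 2.58-fold for LAMB3 to 53.1-fold for ITGB1. Those of ITGB5, ITGB8, ITGA4, LAMA4 and LAMA1 were higher, from 2.33-fold for ITGB8 to 7.57-fold for LAMA1. In several of the higher genes the counts lay mostly in exons with little coding sequence, whereas those of the lower genes lay in coding exons. A gene was compared when it had a level of at least 5 CPM (counts scaled to a common library total) and more than 3 counts in 1 of the libraries, and 28 of the 33 entries passed. In 10 of these 28 the TGF-beta library was higher by 2-fold or more, and in 8 it was lower by as much. Over all 14067 genes compared, the shares were 21.3% higher and 29.2% lower. Of the 15 members with 20 CPM or more in 1 library, 6 were higher and 6 lower, against 18.5% and 36% of all such genes. The members' median log2 ratio was 0.53 (quartiles -1.38 and 1.44), against -0.08 over all genes. Counting intervals lay wholly above equality for 7 members and wholly below it for 5, against 10.9% and 18.4% of all genes compared.

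**Figure D1:**
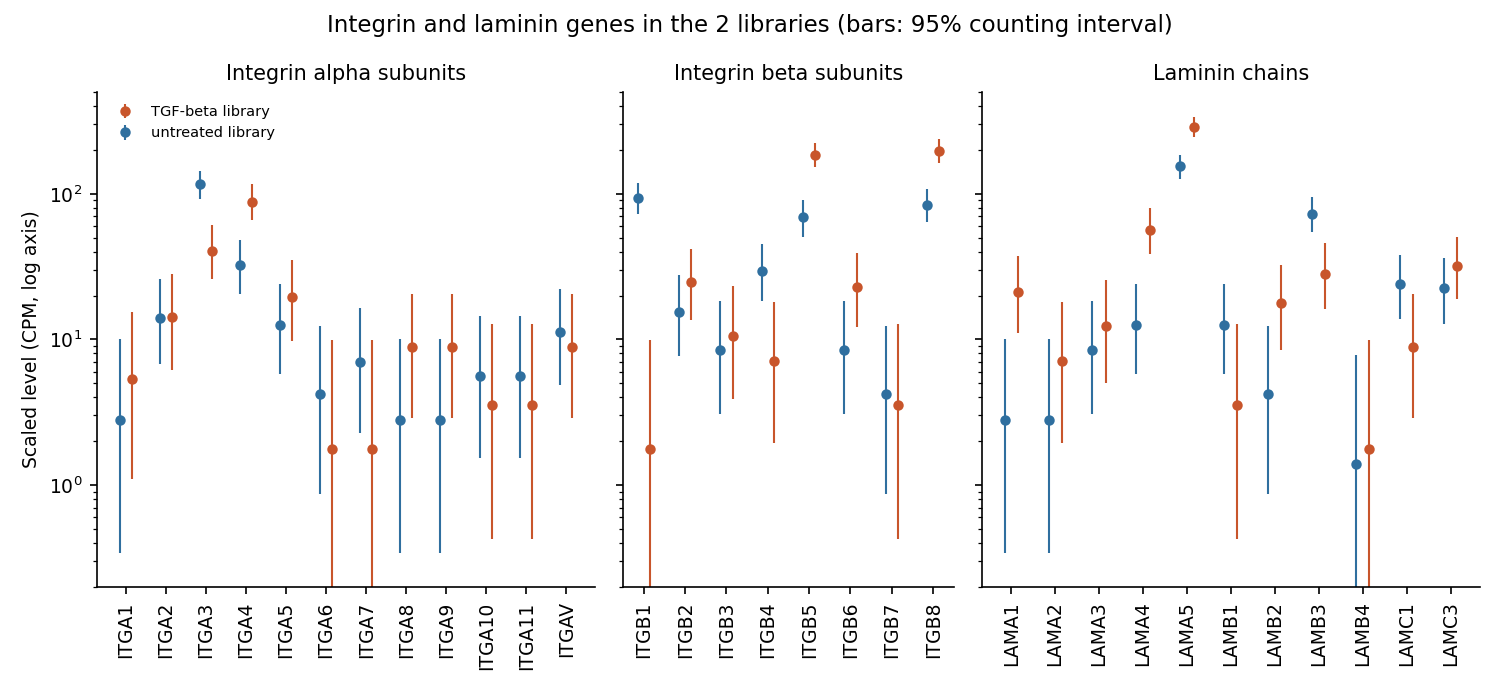
Level of 31 integrin and laminin entries with a count above 0 in 1 library or both, for the TGF-beta library (orange) and the untreated library (blue), in CPM on a log axis, with bars for the exact 95% Poisson interval of the count. ITGB1 has 1.77 CPM after TGF-beta against 94.0 CPM without it, while ITGB5 and ITGB8 stand higher in the TGF-beta library.

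ITGB1 encodes the beta subunit shared by most matrix-binding integrins, among them receptors for collagen, laminin and fibronectin. It had 1 count (1.77 CPM) after TGF-beta and 67 counts (94.0 CPM) in untreated cells. The log2 ratio was -5.73 (-11.06 to -3.20), the lowest among the 28 members compared. ITGA3, whose product pairs with that of ITGB1 as a laminin receptor of epithelia, had 23 counts (40.7 CPM) against 83 (116 CPM), with a log2 ratio of -1.52 (-2.25 to -0.83). ITGB4, the hemidesmosomal beta subunit, which has a long cytoplasmic tail and binds laminin together with ITGA6, had 4 counts (7.08 CPM) against 21 (29.4 CPM). Its log2 ratio was -2.06 (-4.06 to -0.49). All 3 genes were lower in the TGF-beta library beyond counting error. ITGA6 itself had 1 count against 3 and gave no ratio.

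LAMA3 and LAMB3 encode the alpha and the beta chain of the laminin that anchors epithelia through hemidesmosomes. LAMB3 was lower in the TGF-beta library beyond counting error. It had 16 counts (28.3 CPM) against 52 (72.9 CPM), with a log2 ratio of -1.36 (-2.27 to -0.53). For the alpha chain LAMA3 no difference was detectable at this depth, with 7 counts against 6 and a log2 ratio of 0.56 (-1.24 to 2.41).

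In ITGB1, ITGA3, LAMB3 and LAMA5, more than 50% of the counts of both libraries together lay in 2 neighbouring exon segments of coding sequence. The lower genes ITGB4 (1 count against 17.4) and LAMB1 (0 against 6) also had such a pair, with fewer counts. ITGB2 had 8 counts against 6 in the segments that hold its exons 13 and 14 of 15. Of these, 7 against 3 were assigned to an overlapping exon of 439 bases that is 46.2% coding, and the ITGB2 junction is not shown. The junctions of the first 4 genes are shown because they mark where the difference between the libraries sat, a choice made from the counts themselves. Each runs 5′ to 3′ on the gene's strand with 30 bases on either side of the junction, the upstream exon in lower case and the downstream exon in capitals. They were taken from GENCODE 29 transcripts (GRCh38) whose exon lengths equal those in the deposited hg19 table.
ITGB1: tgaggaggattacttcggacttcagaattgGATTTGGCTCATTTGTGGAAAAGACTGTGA
ITGA3: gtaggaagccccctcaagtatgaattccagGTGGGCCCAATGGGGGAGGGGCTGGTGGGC
LAMB3: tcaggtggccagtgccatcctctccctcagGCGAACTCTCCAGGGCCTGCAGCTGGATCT
LAMA5: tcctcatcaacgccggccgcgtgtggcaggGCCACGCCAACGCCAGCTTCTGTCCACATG

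The ITGB1 junction joins exons 5 and 6 of 16 (hg19 chr10:33217022-33217192 and chr10:33214799-33215037, minus strand), and these exons held 1 expected count after TGF-beta and 67.5 in untreated cells. In LAMB3 exons 14 and 15 of 23 (chr1:209798993-209799371 and chr1:209797185-209797345, minus strand) held 1 count against 45. At both junctions the TGF-beta library was thus almost without counts. The ITGA3 pair, exons 19 and 20 of 25 (chr17:48156188-48156290 and chr17:48156440-48156622, plus strand), had 2.50 against 56.0 with all overlapping exons included. LAMA5 differed from these genes. Its exons 31 and 32 of 80 (chr20:60905544-60905670 and chr20:60904833-60904972, minus strand) held 115 counts against 65.9, more in the TGF-beta library.

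ITGAV pairs with several beta subunits, among them ITGB3, ITGB5, ITGB6 and ITGB8. Its pairs with ITGB6 and ITGB8 are known to release active TGF-beta from its latent complex, and that with ITGB5 binds vitronectin. ITGB8 had 111 counts (196 CPM) in the TGF-beta library against 60 (84.1 CPM), with a log2 ratio of 1.22 (0.76 to 1.70). ITGB5 had 105 counts (186 CPM) against 49 (68.7 CPM), with a log2 ratio of 1.44 (0.93 to 1.96). Over all exons both were higher in the TGF-beta library beyond counting error. On mostly coding exons ITGB5 turned to 0 counts against 6, and ITGB8 had 0 in each library. ITGB6 had 13 counts (23.0 CPM) against 6 (8.41 CPM), and its interval just reached equality (log2 ratio 1.45, -0.04 to 3.13). Their partner ITGAV had 5 counts against 8 (log2 ratio -0.34, -2.30 to 1.45), and the vitronectin receptor subunit ITGB3 had 6 against 6 in the entry that held counts. Neither showed a difference at this depth.

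ITGA4, which pairs with ITGB1 or ITGB7 and binds VCAM1 and fibronectin, had 50 counts (88.5 CPM) in the TGF-beta library against 23 (32.3 CPM). It was higher in the TGF-beta library, with a log2 ratio of 1.46 (0.72 to 2.24). ITGB2, the beta subunit of leukocyte integrins, had 14 counts (24.8 CPM) against 11 (15.4 CPM), with a log2 ratio of 0.68 (-0.56 to 1.97). Both are integrin subunits of leukocytes, and the 6 leukocyte markers listed had 12 counts in all against 22. PTPRC had 2 counts against 5 and LYZ was at 0 in both. The part of such cells in these values was not tested.

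The other alpha subunits had at most 11 counts in either library. ITGA5, which forms the classical fibronectin receptor with ITGB1, had 11 counts against 9, and the collagen receptor subunit ITGA2 had 8 against 10. Their log2 ratios were 0.63 (-0.78 to 2.07) and 0.01 (-1.53 to 1.51). ITGA8 and ITGA9 each had 5 counts against 2, and ITGA7, a laminin receptor subunit of muscle, had 1 against 5. These 3 were past 2-fold with intervals that span equality. ITGA10 and ITGA11, both of collagen receptors, had 2 against 4 each. ITGA1 (3 against 2), ITGA6 and ITGB7 (2 against 3) gave no ratio. A change in these subunits was not detectable at this depth.

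**Figure D2:**
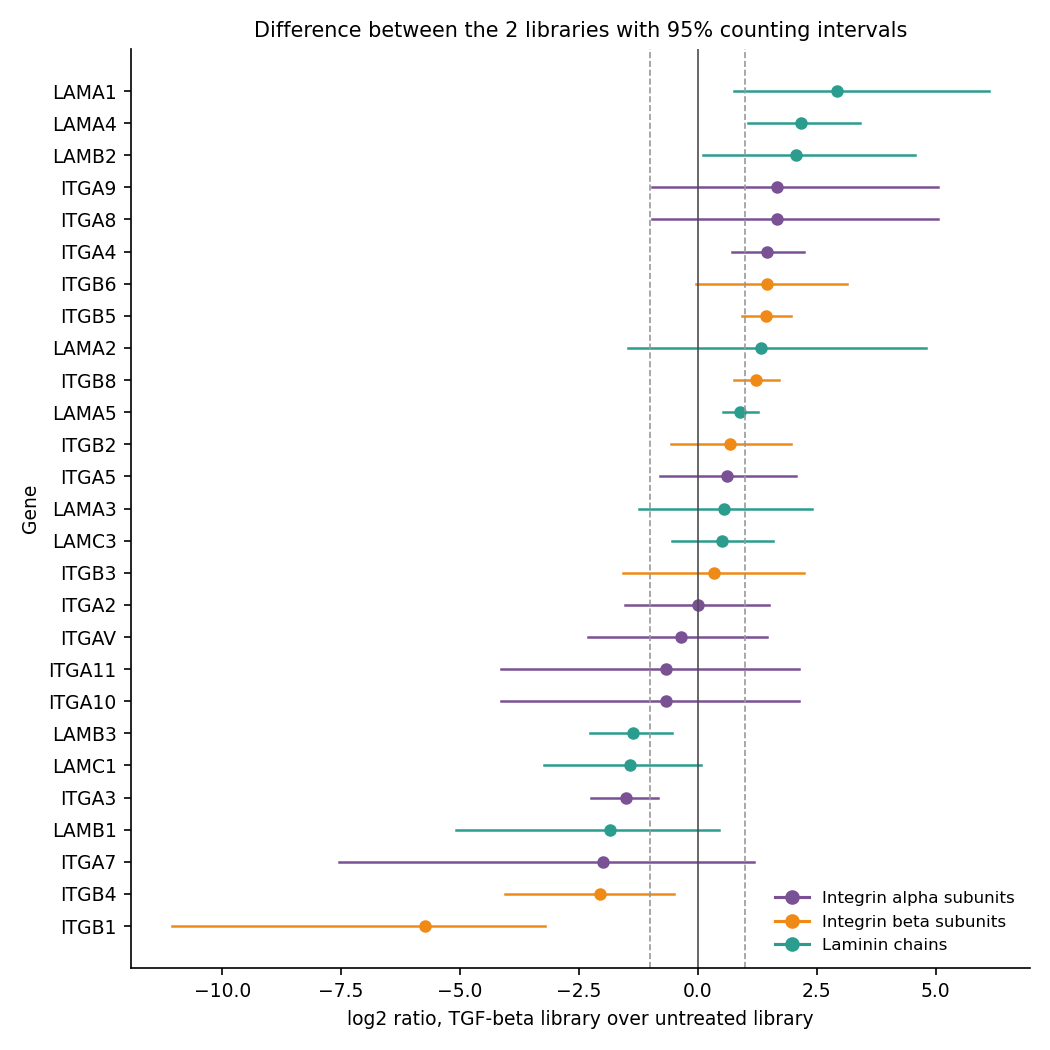
log2 ratio, TGF-beta over untreated, for 27 of the entries compared, ordered by ratio, with exact 95% counting intervals. Dashed lines mark 2-fold. ITGB1 is at the low end, at -5.73, and LAMA1 (2.92) and LAMA4 (2.17) are at the high end.

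Of the other alpha chains, LAMA5, LAMA4 and LAMA1 were higher in the TGF-beta library beyond counting error. LAMA5, the most widespread alpha chain of adult epithelial basement membranes, had 162 counts (287 CPM) in the TGF-beta library against 110 (154 CPM). Its log2 ratio of 0.89 (0.54 to 1.26) was above equality and under 2-fold. LAMA4, a chain of vascular and mesenchymal basement membranes, had 32 counts (56.6 CPM) against 9 (12.6 CPM), with a log2 ratio of 2.17 (1.07 to 3.42). LAMA1, the alpha chain of early embryonic basement membranes, had 12 counts (21.2 CPM) against 2 (2.80 CPM), with a log2 ratio of 2.92 (0.75 to 6.12). LAMA2, the alpha chain of muscle, had 4 counts against 2, too few to tell a difference (-1.47 to 4.80).

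LAMB1 and LAMC1 encode the beta and gamma chains that most laminins of adult tissue share. LAMC1 had 5 counts (8.85 CPM) against 17 (23.8 CPM), and LAMB1 had 2 (3.54 CPM) against 9 (12.6 CPM). Their log2 ratios of -1.43 (-3.22 to 0.07) and -1.83 (-5.08 to 0.44) were both negative with intervals that reached equality. LAMB2, the beta chain of the kidney glomerulus and the neuromuscular junction, had 10 counts (17.7 CPM) against 3 (4.21 CPM), with a log2 ratio of 2.07 (0.12 to 4.57). LAMC3 had 18 counts (31.9 CPM) against 16 (22.4 CPM), with a log2 ratio of 0.51 (-0.55 to 1.57). LAMB4 had 1 count in each library. Of the laminin chains named here, LAMA1, LAMA4, LAMA5 and LAMB2 had intervals above equality, while that of LAMB3 lay below it. On mostly coding exons LAMB2 had 1 count against 3.

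The exon entries of the table divide each gene's count over its exons and show where along the gene the counts lay. Overlapping exons of a gene were merged into exon segments numbered from the 5′ end. Of 16 members with at least 5 counts in each library, 7 had the same most covered segment in both libraries. The same held for 64.1% of 3114 genes of 10 or more segments at that depth. ITGA4 was one of the genes in which the place differed. In the TGF-beta library 33.5 of its 49.5 expected counts lay in a single exon of 1196 bases (chr2:182322923-182324118), of which 10.2% is coding. That exon held 1 count of the untreated library, where segment 1, at the 5′ end, had 21 of the 23 counts. The TGF-beta library had 6 counts in segment 1. The ITGAV counts were likewise apart, with all 5 of the TGF-beta library in segment 1 and all 8 of the untreated library in segments 5 and 6. In LAMB3 the TGF-beta library had 12.9 of its 16 counts in segment 22, away from the junction shown above. The untreated library had 6.96 counts in that segment, while the exons at the junction held 1 against 45. In ITGA3 the most covered segment of the TGF-beta library was segment 4, with 9 counts against 0. The exons at the ITGA3 junction held 2.50 against 56.0. The direction in LAMB3, ITGA3 and ITGA4 thus depended on the segment, although LAMB3 and ITGA3 were lower in total and ITGA4 was higher.

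**Figure D3:**
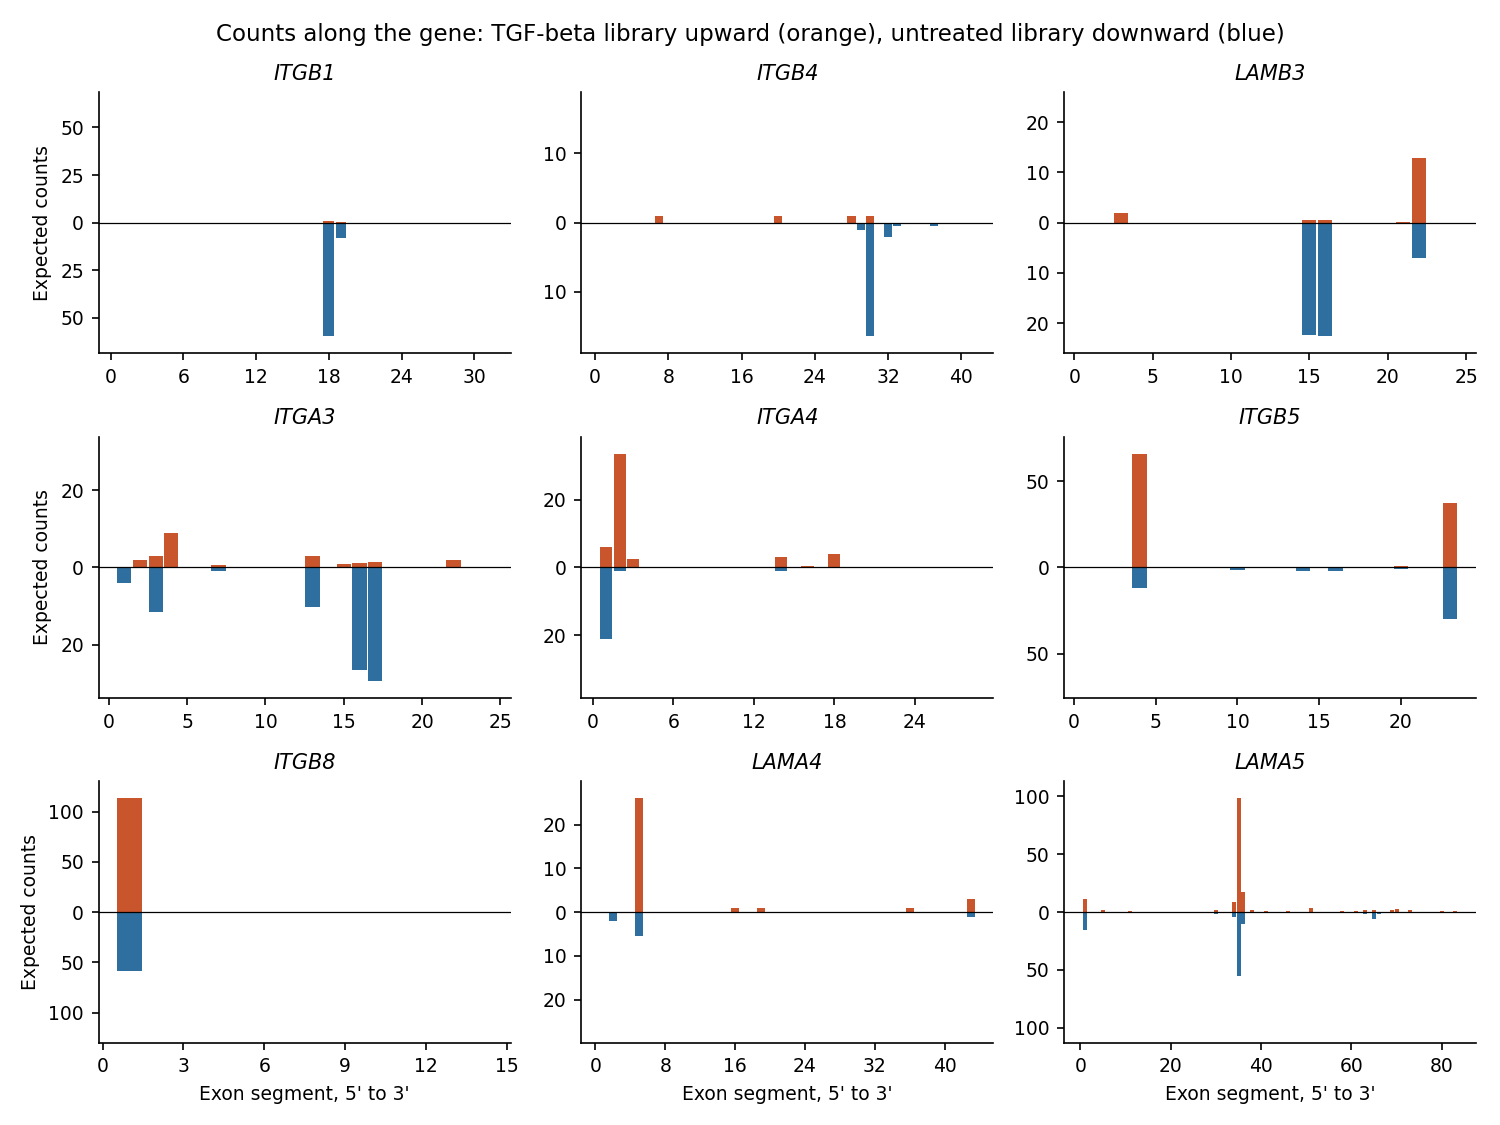
Expected counts along 9 member genes by exon segment from the 5′ to the 3′ end, with the TGF-beta library upward in orange and the untreated library downward in blue. The counts of ITGB1, ITGB4, LAMB3 and ITGA3 in the untreated library lie mainly in a pair of neighbouring segments that is nearly empty in the TGF-beta library, whereas ITGB8 and LAMA5 have their counts in the same segments in both.

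ITGB8 and ITGB5 had nearly all of their counts in exons with little coding sequence. All but 1 of the ITGB8 exon counts lay in segment 1 (113 against 59), in exons that are at most 15.3% coding. A gene on the opposite strand, CTA-293F17.1, overlaps this segment and had 4.25 and 0.5 expected counts. Whether the counting used strand is in no source used here, and reads of both genes cannot be told apart. ITGB5 had 66 counts against 12 in an exon of 367 bases (chr3:124605778-124606144) that is 19.1% coding. Its exon of 1771 bases at the 3′ end (chr3:124480795-124482565) held 37.5 against 30. The excess of the TGF-beta library was thus larger at the 5′ end of ITGB5, though its 3′ exon also held more counts in that library. LAMA4 had 26.0 counts against 5.50 in an exon of 528 bases (chr6:112534744-112535271) of which 17.6% is coding. LAMA1 and ITGB6 had theirs in coding exons instead, with 11.5 of 12.5 exon counts of the TGF-beta library in segment 53 for LAMA1 and 10.3 of 13.3 in segment 19 for ITGB6.

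An exon was called mostly coding when at least 50% of its length is coding sequence of some transcript of the gene in the table. Of the 10 higher members, 6 had under 50% of their counts in such exons (ITGA4, ITGA8, ITGB5, ITGB8, LAMA4 and LAMB2). LAMB2 was near the limit, since its exon with 8.78 counts of the TGF-beta library is 47.7% coding. Of the 8 lower members, 0 had under 50% in mostly coding exons, and their share ran from 65.8% (ITGA3) to 100% (ITGB1, ITGB4 and LAMB1). A difference in the same direction was seen over all coding genes with at least 20 CPM. Among 799 such genes past 2-fold in the higher direction, 49.9% had under 50% of their counts in mostly coding exons, against 23.9% of 1771 in the lower direction. Of 2125 genes in between it was 45.9%, close to the higher genes, so that the lower genes stood apart. Of the members at 20 CPM or more, 4 of 6 higher, 0 of 6 lower and 1 of 3 in between had under 50%. The difference between higher and lower genes was thus not seen in integrins and laminins alone.

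With the counts of mostly coding exons alone, 23 members could be compared, of which 5 were past 2-fold higher and 10 past 2-fold lower. Over the 7663 genes compared in this way the shares were 17.6% and 39.2%. Their median log2 ratio was -0.52, against -0.08 on all exons. The scaling of all exons was kept for these ratios. Mostly coding exons held a smaller share of exon counts in the TGF-beta library (45.0% against 59.0%), which goes with the lower median on this measure. Single ratios moved either way. That of ITGA4 rose from 1.46 to 3.66, that of ITGB5 fell from 1.44 to -0.66, and that of LAMA1 stayed at 2.92. All 8 members that were lower on all exons were lower on coding exons too. ITGB1 had 1 against 68, where its 67.5 expected counts were rounded up. ITGAV had 0 against 8, which with the 0 set to a floor of 3 counts is a log2 ratio of -1.08 (interval up to -0.44). Of the higher members, ITGA4 (10 against 1), ITGB6 (11 against 6), LAMA1 (12 against 2), LAMA2 (4 against 2) and LAMA4 (5 against 1) stayed past 2-fold, although the intervals of ITGB6, LAMA2 and LAMA4 span equality. ITGB5, with 0 against 6, had a log2 ratio of -0.66 at the floor and an interval up to 0.10. The remaining 4 higher members gave no ratio. They were ITGB8, LAMB2 (1 against 3, the other direction than on all exons), ITGA8 (2 against 1) and ITGA9 (3 against 1). ITGB2 had 2 against 6, with an interval that spans equality (-4.59 to 1.23). LAMA5 was alike on both measures, with 158 counts against 107 and a log2 ratio of 0.90 (0.53 to 1.27). This choice of exons was made after the data were seen.

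**Figure D4:**
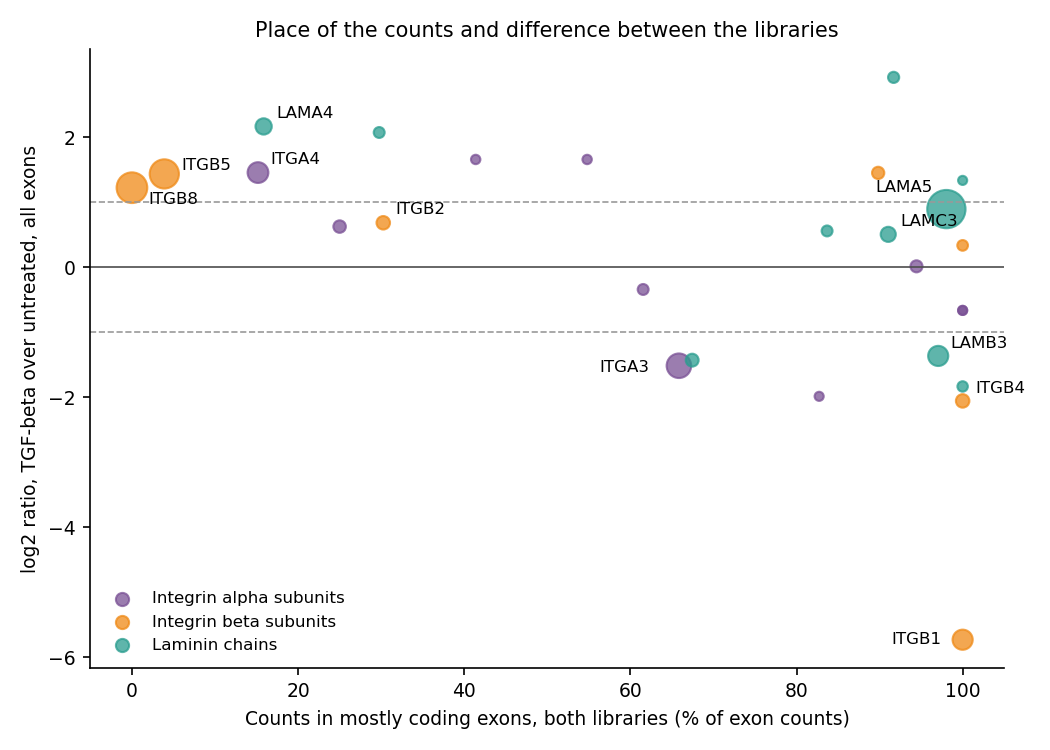
log2 ratio over all exons against the share of a gene's exon counts, both libraries together, that lies in mostly coding exons, for 27 of the entries compared. The size of a point grows with the number of counts, and dashed lines mark 2-fold. ITGB8, ITGB5, ITGA4 and LAMA4 combine a higher count in the TGF-beta library with a coding share under 16%, and the lower genes lie at 65.8% or more.

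Summed over the class, the integrin alpha genes took 0.0194% of all counts in the TGF-beta library (116 counts, 0.0161% to 0.0233% by the exact 95% binomial interval) against 0.0230% (155 counts, 0.0195% to 0.0269%). These intervals overlap. The integrin beta genes took 0.0429% (256 counts, 0.0378% to 0.0485%) against 0.0330% (223 counts, 0.0289% to 0.0377%), and the intervals do not overlap. ITGB5 and ITGB8 gave 105 and 111 of the 256 counts. On mostly coding exons the direction turned, with 25 counts of integrin beta genes against 115 and a median log2 ratio of -0.96 in place of 0.68. ITGB1 gave 1 of these 25 counts and 68 of these 115. The median over all genes was also lower on this measure, at -0.52 against -0.08 on all exons. The laminin genes took 0.0454% (271 counts, 0.0401% to 0.0511%) and 0.0456% (308 counts, 0.0407% to 0.0510%), of which LAMA5 gave 162 and 110. The 6 integrin subunits outside the symbol rule include ITGAX, a leukocyte integrin subunit, with 133 counts against 172, and ITGA2B, the platelet alpha subunit, with 19 against 22. Of these 6, 4 passed, and 0 were past 2-fold in either direction.

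Genes that work with integrins inside the cell were described in 3 lists. Of 24 activators and adaptors that passed, 13 were past 2-fold lower and 2 past 2-fold higher. The median of their log2 ratios was -1.48. ZYX, the focal adhesion protein zyxin, had 6 counts against 75 (-3.31, -4.80 to -2.12), and ACTN4, an actin crosslinker, had 19 against 142 (-2.57, -3.34 to -1.87). TES had 1 against 20 and TNS3 had 2 against 17. Of 23 kinases and signalling genes of focal adhesions, 11 were lower and 2 higher (median -0.66). The GTPase genes RHOA, with 7 counts against 81 (-3.20, -4.56 to -2.09), and RAC1, with 0 against 42, were among the lower ones, as was NEDD9 (2 against 20). ROCK1, a kinase downstream of RHOA, had 15 against 2 and was higher (3.24, 1.14 to 6.41). Integrin trafficking genes were divided, with 5 of 13 higher and 4 lower (median -0.25). SNX17, which sorts integrins back to the cell surface, had 17 counts against 2, CLTC, the clathrin heavy chain, had 114 against 62, and the endosomal GTPase RAB5A had 5 against 38, as SWAP70 had 3 against 25.

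Of 16 other laminin receptors and membrane partners of integrins, 12 were past 2-fold lower and 0 higher. The median of their log2 ratios was -1.94. Among them the tetraspanin CD63 had 4 counts against 55 (-3.45, -5.37 to -2.01), and the urokinase receptor PLAUR had 12 against 114 (-2.91, -3.91 to -2.05). The syndecans SDC1 (1 against 20) and SDC4 (2 against 25), which carry heparan sulfate, were low as well. The hemidesmosome list had 4 genes that passed, of which 1 was past 2-fold, the tetraspanin CD151 with 26 against 106 (-1.69, -2.37 to -1.06), a partner of laminin-binding integrins. PLEC, the cytoskeletal linker plectin, had 112 against 115 (0.30, -0.09 to 0.69), DST had 19 against 12 and KRT5 had 11 against 17. Of the 15 basement membrane partners of laminin, 3 were lower and 2 higher (median 0.34). COL4A2, a collagen IV chain, had 10 against 65 (-2.36, -3.49 to -1.39), COL4A5 had 4 against 20 and AGRN, agrin, had 20 against 63 (-1.32, -2.12 to -0.57). HSPG2, which encodes perlecan, had 165 against 117 (0.83, 0.48 to 1.19).

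Of 18 other integrin ligands, 6 were lower and 4 higher (median 0.02). The matrix protein TGFBI had 15 counts against 407 (-4.43, -5.28 to -3.69), and SPP1, osteopontin, had 0 against 32. TGFB1, whose latent form is bound by ITGAV integrins, had 12 against 106 (-2.81, -3.80 to -1.94). ICAM1, the ligand of ITGB2 integrins, went the other way with 711 against 73 (3.62, 3.27 to 3.99). These lists are set beside the 21.3% higher and 29.2% lower of all genes. They were described and not tested.

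Markers of other cell types were counted in both libraries. Of 6 endothelial markers 4 passed, with 1 past 2-fold higher and 0 lower, and their summed count was 44 in each library. The 7 fibroblast markers had 410 counts against 257, of which COL1A1 made up 356 and 196, while LUM was at 0 in both and DCN had 1 against 2. The 4 platelet markers had 32 against 34. The 8 epithelial markers had 120 against 306, with KRT7 at 32 against 179, the 8 mesenchymal markers 92 against 523, with VIM the largest part, and the 7 markers of alveolar epithelium 61 against 70. The part of these in the integrin and laminin values was not tested.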

How the data were processed

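Per the labels' protocols, libraries of A549 RNA were made with the AmpliSeq Transcriptome kit. The deposited table holds expected counts (estimated counts, not normalized) for genes, within-gene shares for transcripts and the gene's count divided over exons, with hg19 coordinates. A genome build, hg19, and a tool, DESeq, stand in the submitters' processing notes, with no version or role. No source used here names the aligner or counter.

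Gene counts were rounded to whole numbers (0.5 upward) and scaled by TMM, the trimmed mean method of edgeR 4.0.16 in R 4.3.3, with factors of 0.946 (TGF-beta) and 1.06 (untreated). No ratio was taken where neither library had over 3 counts. A count of 0 was set to a floor of 3 counts, equal to 5.31 CPM in the TGF-beta and 4.21 CPM in the untreated library. For ratios, the exact 95% interval (Clopper-Pearson) was computed given the sum of both counts, and the calculation was tested on simulated data. With 1 library per group no test was run, and the 2-fold rule describes these libraries. Scaling with DESeq2 1.42.0 size factors, totals or upper quartiles, filters and rounding were alternatives. Members with at least 20 CPM in 1 library, or an interval that excludes equality, are named in full, and of the other lists up to 4 genes with the largest ratios at 20 CPM or more. Of the listed symbols, TNS2 was not matched. An item of this gene set is not reported by itself here; counts and sums over the set include it. The members and lists were chosen with earlier results of these data known.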

Additional observations from a re-analysis of the deposited data

How the results depend on the processing

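The counts of 10 higher and 8 lower members were the same with DESeq2 size factors, total counts, upper quartile factors, log2(CPM + 1) and filters of 1 CPM or none, the last 2 of which leave the same genes by construction. Unrounded counts gave 10 and 9. Scaling shifted every log2 ratio by -0.22, -0.16 or 0.08, and of the 28 members only ITGA2 (0.01) changed sign, to -0.21 with DESeq2 and -0.15 with totals. With 20 CPM, 6 members were higher and 6 lower of 15, and 986 and 1921 genes of 5341. Without genes that have over 90% of their counts in 1 exon, 1822 genes of 9199 were higher, and of the members only ITGB8 was left out. Mostly coding exons gave 5 higher members, 1351 higher genes, a beta subunit median of -0.96 in place of 0.68, and a log2 ratio of -0.66 for ITGB5 in place of 1.44. With the scaling of all exons kept, the median over all genes was -0.52 on mostly coding exons, against -0.08. Fewer genes are tested under these 3 settings. The coding-exon setting was chosen after seeing the data. Without the genes that were among the 10 largest of either library, the shares were 0.0353% and 0.0348% for integrin alpha genes (TGF-beta and untreated), 0.0778% and 0.050% for integrin beta genes, and 0.0824% and 0.0691% for laminin genes, because the totals are smaller. No paired analysis was possible because each group has 1 library. Most members have under 20 counts in a library, so that only large differences could be told from counting error.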

Other observations

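The base composition of the exon with the most counts varied among both the higher and the lower members. Of the higher members, the main exon of the TGF-beta library had a GC content of 82.6% in ITGB5 and 67.1% in ITGB8, but 40.6% in ITGA4 and 36.9% in LAMA4. In the lower members, the main exon of the untreated library ranged from 39.2% in ITGB1 and 52.2% in LAMB3 to 61.7% in ITGA3 and 62.3% in ITGB4. These values come from GENCODE 29 transcripts matched by transcript identifier and exon length, and they are a description.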
